A study of Mus musculus with 8 samples.

Results

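Endothelial cells line every blood vessel. Here 10 genes that mark them were followed through RNA sequencing of tissue labelled as mouse dorsal root ganglia. Such ganglia are the clusters of sensory neuron bodies beside the spinal cord. The genes were Pecam1, Cdh5, Cldn5, Kdr, Flt1, Tek, Eng, Emcn, Plvap and Slco1a4. They were found by symbol, and all 10 were among the 18560 genes of the table and among the 15098 that passed a filter on low counts. The series holds 8 libraries. Of these, 4 carry the label cKO, a conditional knockout of the mRNA export adaptor gene Alyref, and 4 the label WT, and the genotype labels of both groups also carry P60. Neither the Cre driver, the floxed allele, the cells that lost the gene, nor the sex and number of mice behind a library is given in the labels. Replicates are separate biological replicates per the design text, which also speaks of 4 sequencing batches without saying which library was in which, so no value within a batch can be given, and batch and group cannot be told apart.

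Vessels of the central nervous system and of the inner nerve are sealed. Their endothelial cells are joined by tight junctions rich in claudin-5 and carry transporters that select what crosses. Vessels among the cell bodies of a dorsal root ganglion are known to be more permeable, and some hold fenestrae, small openings bridged by diaphragms that contain the Plvap protein. General endothelial genes such as Cdh5 mark both kinds, whereas Slco1a4 marks barrier vessels of the mouse brain.

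Total estimated counts were 15763458 to 16482614 in libraries labelled cKO and 15522915 to 16311155 in libraries labelled WT. Alyref itself averaged 20.5 ± 0.946 CPM (counts scaled to a common library total) in libraries labelled cKO and 22.04 ± 2.71 CPM in WT (SD, n = 4 each), with a log2 fold change of −0.11 ± 0.097 (SE; edgeR adjusted p = 0.887), so both groups are named by their labels and directions hold between the labels. WT replicate 2 stood apart from the rest. Spearman correlations across genes were 0.944 to 0.967 between it and the others and 0.990 to 0.996 among the other 7. The summed level of 15 sensory neuron markers was 268.6 to 921.6 CPM in libraries labelled cKO, 3561 CPM in WT replicate 2 and 323.5 to 996.9 CPM in the other WT libraries. The sum of 16 spinal cord markers was 17372 to 22491 CPM in libraries labelled cKO, 7120 CPM in WT replicate 2 and 15017 to 22548 CPM in the other WT libraries. All markers of both lists passed the filter on low counts, so genes of central neurons and glia were present in tissue labelled as ganglia. The spinal cord sum was above the sensory neuron sum in every library. The share of each tissue was not tested, so the endothelial levels below belong to the tissue as sampled and not to ganglia alone. Slc1a2, the glutamate transporter of astrocytes, stood at 2206 to 2508 CPM in libraries labelled cKO, 878.4 CPM in WT replicate 2 and 2146 to 2688 CPM in the other WT libraries. Most group comparisons are therefore given with and without WT replicate 2.

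Endothelial transcripts were present in every library at low to moderate levels. In TPM, a level scaled for transcript length so that genes can be compared, Slco1a4 led with a mean of 38.4 TPM over the 8 libraries, above 70.04% of the tested genes. It was followed by Emcn with 19.4 TPM, Cldn5 with 16.7 TPM, Pecam1 with 14.2 TPM and Plvap with 10.5 TPM. Flt1 with 10.2 TPM, Eng with 9.20 TPM, Cdh5 with 6.32 TPM, Tek with 4.57 TPM and Kdr with 3.47 TPM made up the lower end. The range over libraries overlapped between each gene and the next in this order. Within single libraries Slco1a4 exceeded Emcn in 8 of 8, whereas Emcn exceeded Cldn5 in 5 of 8, Cldn5 exceeded Pecam1 in 5 of 8, Plvap exceeded Flt1 in 3 of 8 and Flt1 exceeded Eng in 6 of 8, so these 4 pairs have no fixed order. The transporter of barrier vessels thus stood at the top, and the fenestral gene Plvap was also present in every library, at 9.06 to 11.3 TPM in libraries labelled cKO and 9.50 to 13.6 TPM in WT. RNA came from whole tissue, where fewer endothelial cells and less RNA per cell cannot be told apart.

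The sequence before the start sites was read for 7 of the 10 genes in RefSeq's promoters of GRCm38.p6, each from 250 bases before to 50 bases after the start. Those of 4 genes, chosen after their values were seen, are printed. They show barrier genes (Cldn5 and Slco1a4, below the median of the other libraries in WT replicate 2) beside genes of wider use (Emcn and Eng, above it). Of those not printed, Flt1 lay below that median too, with a log2 difference of −0.47, and Kdr and Tek lay above it, with 0.24 and 0.54. Capitals mark GGAA or its reverse TTCC, the core letters of ETS transcription factors, a family that endothelial cells use widely.
Cldn5, chr16:18776597-18776896, plus strand: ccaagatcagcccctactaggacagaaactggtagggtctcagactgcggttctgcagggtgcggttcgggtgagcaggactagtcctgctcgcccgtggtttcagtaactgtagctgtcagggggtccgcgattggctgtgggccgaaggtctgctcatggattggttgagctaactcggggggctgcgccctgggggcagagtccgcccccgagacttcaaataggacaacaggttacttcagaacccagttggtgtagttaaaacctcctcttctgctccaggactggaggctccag
Slco1a4, chr6:141856171-141856470, minus strand: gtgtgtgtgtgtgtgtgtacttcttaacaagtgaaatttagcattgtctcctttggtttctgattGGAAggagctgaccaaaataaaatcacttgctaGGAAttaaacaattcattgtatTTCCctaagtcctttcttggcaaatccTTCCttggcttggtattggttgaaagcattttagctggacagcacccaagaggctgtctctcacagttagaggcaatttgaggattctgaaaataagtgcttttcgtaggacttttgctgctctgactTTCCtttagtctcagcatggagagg
Emcn, chr3:137340828-137341127, plus strand: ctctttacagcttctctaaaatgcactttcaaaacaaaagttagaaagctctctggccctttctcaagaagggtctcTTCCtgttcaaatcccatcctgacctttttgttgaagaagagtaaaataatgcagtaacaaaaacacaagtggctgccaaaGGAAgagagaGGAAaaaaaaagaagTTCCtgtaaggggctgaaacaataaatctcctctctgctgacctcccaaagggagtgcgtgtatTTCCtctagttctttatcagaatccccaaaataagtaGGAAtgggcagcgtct
Eng, chr2:32646345-32646644, plus strand: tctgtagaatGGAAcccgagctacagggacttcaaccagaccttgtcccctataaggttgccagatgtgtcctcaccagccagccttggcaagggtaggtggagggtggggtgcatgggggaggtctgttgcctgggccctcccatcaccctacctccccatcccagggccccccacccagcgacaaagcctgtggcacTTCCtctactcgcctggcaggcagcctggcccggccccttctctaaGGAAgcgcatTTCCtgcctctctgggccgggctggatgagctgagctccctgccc

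The GGAA letters occurred 6 times in the window of Emcn, 5 times in those of Slco1a4 and Kdr, 4 times in those of Eng and Flt1, 2 times in that of Tek and 0 times in that of Cldn5. Of all 32851 promoters of this length in the table, 95.98% held them at least once, with a median of 3, so Cldn5 was among the few without. The SOX letters AACAAT or ATTGTT stood once each in the windows of Emcn, Slco1a4 and Tek and in 10.7% of all promoters. The GATA letters AGATAA or TTATCT stood in that of Tek and in 11.2% of all, and the TATA letters TATAAA or TTTATA in that of Flt1 and in 13.6% of all. Base composition set the genes apart too, with GC shares of 40.7% and 41% for Slco1a4 and Emcn, 58.3% for Cldn5, 63.3% for Eng and 70.7% for Flt1, against a median of 52.7% over all promoters. A match describes letters in this window and shows no binding. The start used for a window lay inside the gene's extent given below for some genes. These were Kdr (75978455), Flt1 (147726011), Tek (94739289), Slco1a4 (141856220) and Emcn (137341078), whose windows were thus not placed at the outermost start.

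None of the 10 genes passed the test between the groups, where 0% of all tested genes did (edgeR, adjusted p below 0.05). At an unadjusted p below 0.05 there was 1 of the 10, Eng, against 1.65% of all tested genes in either direction and 1.25% in the direction of lower levels in libraries labelled cKO. DESeq2 and limma on TPM values also had 1 of the 10 below that p and 0 with an adjusted p below 0.05. Of all 15098 genes, 308 were below that p with DESeq2, 217 with limma on log2(TPM + 1) and 215 on log2(TPM + 0.1). All 10 had a lower mean in libraries labelled cKO, and the median of their log2 fold changes was −0.25, while 51.5% of all tested genes were lower and had a median of −0.005. Without WT replicate 2 there were 8 of 10 lower, with a median of −0.25, against 49.9% of all genes, and 0 of 10 had an unadjusted p below 0.05, against 1.94% of all genes. With the level of spinal cord markers as a covariate there were also 8 of 10 lower and 0 of 10 below that p, against 2.05% of all genes. The median was −0.46 without cKO replicate 4 and −0.14 without cKO replicate 3. Over the single libraries left out, 0 to 3 of the 10 had an unadjusted p below 0.05, with 3 without cKO replicate 4 (Kdr, Eng and Pecam1) and 3 without WT replicate 4 (Pecam1, Cdh5 and Eng). Over all tested genes 202 of 15178 were below that p without cKO replicate 4 and 614 of 15187 without WT replicate 4. These counts ran from 131 of 15198 without cKO replicate 2 to 820 of 15216 without WT replicate 1. Markers of some other cells were lower in libraries labelled cKO too. All 14 fibroblast and meningeal genes were (median −0.58, with 4 at an unadjusted p below 0.05 and 0 passing, edgeR), as were all 8 red cell genes (median −0.54) and all 15 sensory neuron genes (median −1.25). In these 3 lists 12 of 14, 8 of 8 and 6 of 15 were lower without WT replicate 2. All 16 spinal cord genes were higher instead (median 0.20), and 6 of 16 were without WT replicate 2. With all libraries 11 of 16 mural, 7 of 10 satellite and Schwann cell and 9 of 12 platelet and leukocyte genes were lower. The part of these cells in the endothelial values was not tested. Members of 1 cell type share that cell type's abundance, so the 10 directions are not separate observations. The groups overlapped for each of the 10 genes, where 0.914% of all tested genes lay lower in libraries labelled cKO without overlap.

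**Figure D1:**
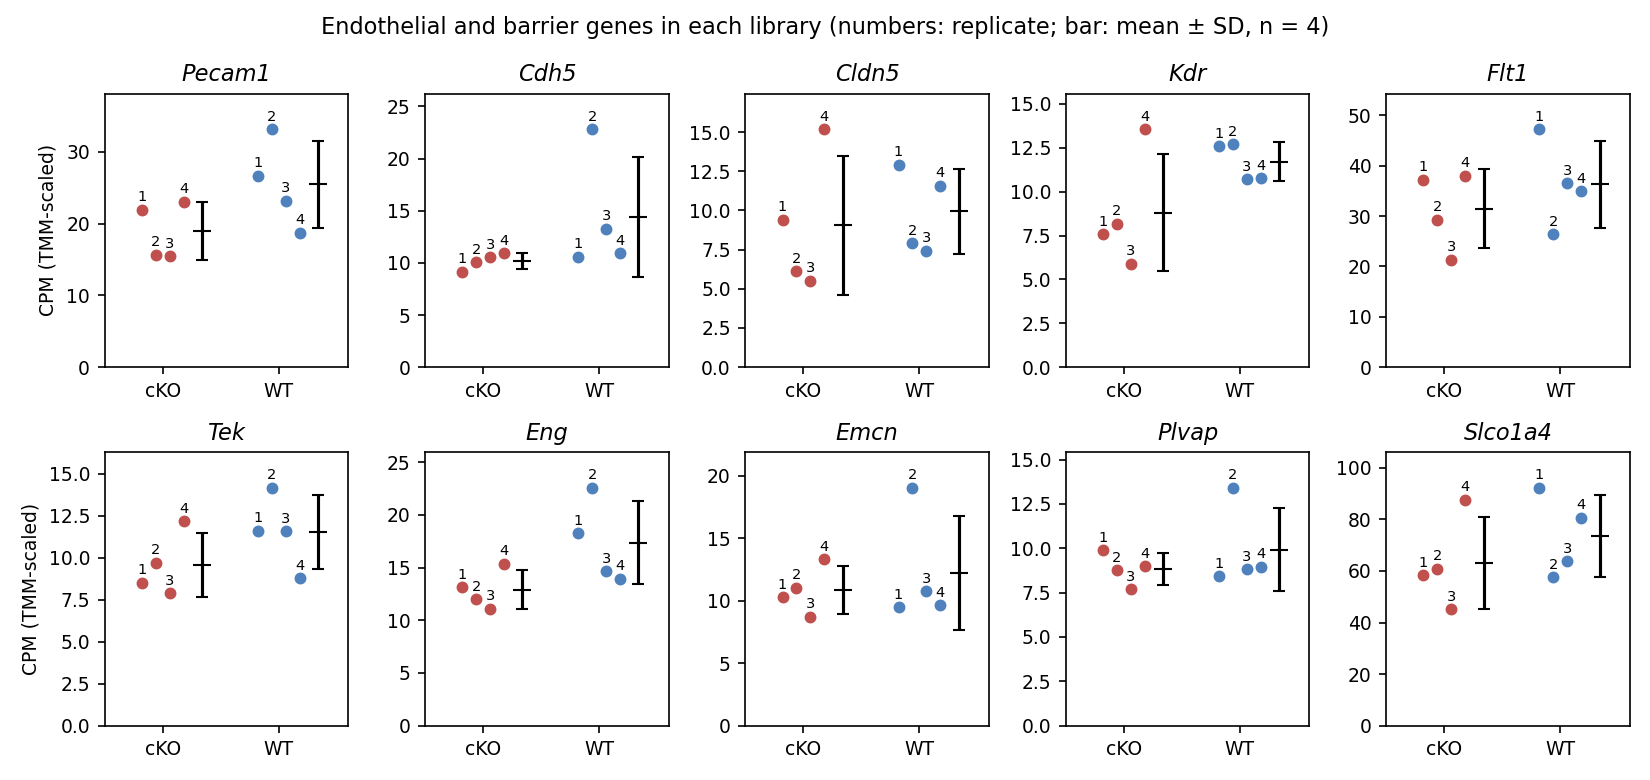
CPM of each of the 10 genes by library (vertical axis from 0; red, libraries labelled cKO; blue, WT; digits, replicate numbers; black bar, mean ± SD, n = 4). WT replicate 2 is the top point for Pecam1, Cdh5, Tek, Eng, Emcn and Plvap, and cKO replicate 3 is the lowest point for each gene but Cdh5.

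The junction and adhesion genes come first. Pecam1, or CD31, is an adhesion protein at contacts between endothelial cells that platelets and leukocytes also carry. It lies on chromosome 11 from 106654213 to 106715281 (GRCm38). Its levels were 21.97, 15.7, 15.4 and 23.1 CPM in cKO replicates 1 to 4, against 26.7, 33.2, 23.2 and 18.7 CPM in WT replicates 1 to 4. WT replicate 4 lay below 2 cKO libraries, and the rest of the WT libraries lay above all of them. The mean was 19.03 ± 4.05 CPM in libraries labelled cKO and 25.5 ± 6.08 CPM in WT (SD, n = 4 each), a log2 fold change of −0.42 ± 0.20 (SE; edgeR adjusted p = 0.887), and its 95% interval was −0.88 to 0.04. The fold change was −0.26 without WT replicate 2. Of 12 tested platelet and leukocyte markers, 9 were highest and 3 lowest in WT replicate 2. Their sum was 293.3 to 431.3 CPM in libraries labelled cKO, 816.7 CPM in WT replicate 2 and 318.0 to 384.4 CPM in the other WT libraries, and their part in the Pecam1 value was not tested.

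Cdh5, or VE-cadherin, is the adhesion protein of endothelial adherens junctions (chromosome 8, 104101613 to 104144504, GRCm38). It stood at 9.15, 10.1, 10.5 and 10.9 CPM in cKO replicates 1 to 4, against 10.6, 22.8, 13.3 and 10.95 CPM in WT replicates 1 to 4. The 4 cKO libraries were close together, and WT replicate 2 lay far above the other 7. Cdh5 had the lowest fold change of the 10, −0.50 ± 0.24 on the log2 scale (SE; edgeR adjusted p = 0.887; 95% interval −1.05 to 0.04), and it was −0.19 without WT replicate 2 (edgeR adjusted p = 0.9997).

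Cldn5 encodes claudin-5, the main sealing protein of tight junctions in barrier vessels (chromosome 16, 18776847 to 18778262, GRCm38). Its levels were 9.40, 6.14, 5.52 and 15.2 CPM in cKO replicates 1 to 4, against 12.9, 7.90, 7.44 and 11.6 CPM in WT replicates 1 to 4. The highest and the lowest library of all 8 were both labelled cKO. These values rest on 88 to 243 estimated counts in libraries labelled cKO and 122 to 196 in WT. On the log2 scale cKO over WT came to −0.13 ± 0.34 (SE; edgeR adjusted p = 0.919), and the 95% interval ran from −0.90 to 0.63, so neither direction can be named. The value was −0.23 without WT replicate 2. Its sign turned when cKO replicate 2 was left out (0.01), when cKO replicate 3 was (0.04) and when WT replicate 1 was (0.02).

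Growth factor receptors form the next group. Kdr, the main signalling receptor of VEGF-A (chromosome 5, 75932827 to 75979072, GRCm38), stood at 7.57, 8.18, 5.89 and 13.6 CPM in cKO replicates 1 to 4, against 12.6, 12.7, 10.7 and 10.8 CPM in WT replicates 1 to 4. Here the WT libraries were close together, cKO replicates 1 to 3 lay below all of them, and cKO replicate 4 lay above all of them. The log2 fold change was −0.41 ± 0.24 (SE; edgeR adjusted p = 0.887; 95% interval −0.95 to 0.13). Without cKO replicate 4 it was −0.70 and still short of the threshold (edgeR adjusted p = 0.944), and without cKO replicate 3 it was −0.26.

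Flt1 binds VEGF-A more tightly than Kdr and in its soluble form acts as a decoy (chromosome 5, 147561604 to 147726438, GRCm38). It stood at 37.2, 29.3, 21.4 and 38.1 CPM in cKO replicates 1 to 4, against 47.3, 26.4, 36.6 and 34.98 CPM in WT replicates 1 to 4. Unlike most of the 10, it was low in WT replicate 2, which ranked seventh of the 8 libraries. Libraries labelled cKO over WT came to −0.20 ± 0.22 in log2 (SE; edgeR adjusted p = 0.887), to −0.33 without WT replicate 2, and to −0.06 and −0.05 without cKO replicate 3 or WT replicate 1.

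Tek, or Tie2, is the receptor of the angiopoietins, which steady vessels (chromosome 4, 94739086 to 94874976, GRCm38). It stood at 8.52, 9.71, 7.90 and 12.2 CPM in cKO replicates 1 to 4, against 11.6, 14.2, 11.6 and 8.78 CPM in WT replicates 1 to 4. The groups overlapped over most of their ranges. The difference was −0.27 ± 0.18 in log2 (SE; edgeR adjusted p = 0.887) and −0.15 without WT replicate 2.

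Eng, or endoglin, is a co-receptor for ligands of the TGF-beta family (chromosome 2, 32646595 to 32682669, GRCm38). It stood at 13.1, 12.02, 11.1 and 15.4 CPM in cKO replicates 1 to 4, against 18.3, 22.6, 14.7 and 13.9 CPM in WT replicates 1 to 4. Only cKO replicate 4 reached into the WT range. Eng was the gene of lowest p among the 10 and the only one whose 95% interval, −0.82 to −0.04 around a log2 fold change of −0.43 ± 0.17 (SE), left out 0, but its adjusted p = 0.887 (edgeR) did not pass. Its mean was 0.743 times the WT mean. Without WT replicate 2 the log2 fold change was −0.27, with an unadjusted p = 0.070 (edgeR).

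**Figure D2:**
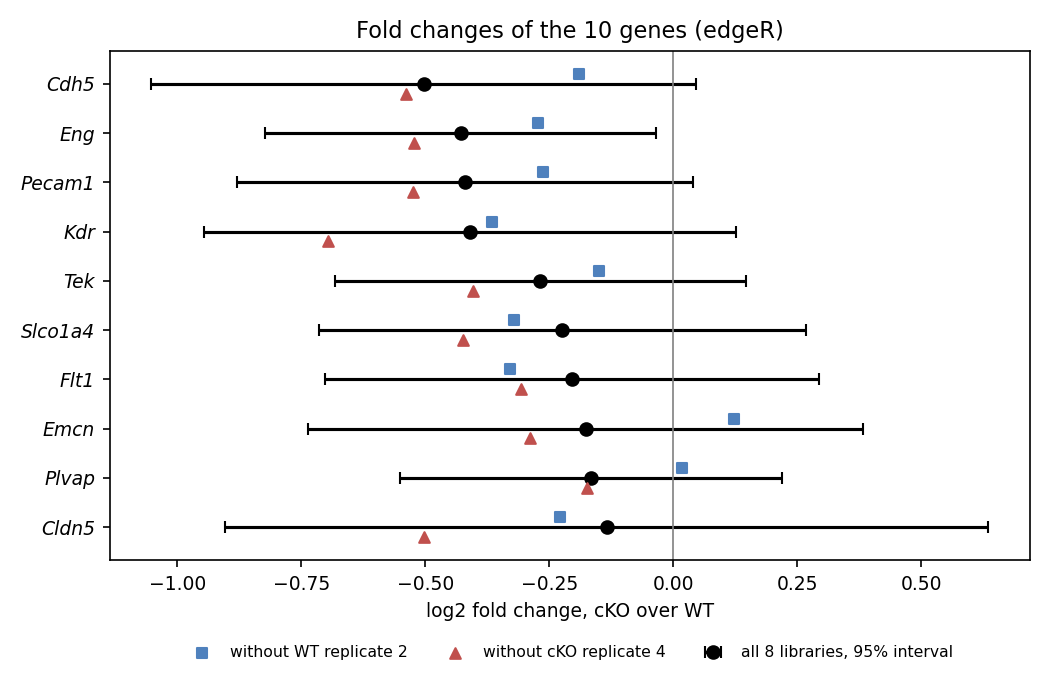
Log2 fold change of libraries labelled cKO over WT for each gene (horizontal axis; black points with 95% intervals, all 8 libraries, edgeR; blue squares, without WT replicate 2; red triangles, without cKO replicate 4). All 10 black points lie below 0, the squares of Emcn and Plvap lie above it, and the triangles of Kdr and Cldn5 lie farthest left of their points.

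The surface and vessel type genes close the list. Emcn, or endomucin, is a sialomucin of capillary and venous endothelium (chromosome 3, 137341062 to 137431069, GRCm38). It stood at 10.3, 11.1, 8.72 and 13.3 CPM in cKO replicates 1 to 4, against 9.49, 19.05, 10.8 and 9.65 CPM in WT replicates 1 to 4. Its cKO libraries surrounded 3 of the WT libraries, with WT replicate 2 above all. The difference was −0.18 ± 0.25 in log2 (SE; edgeR adjusted p = 0.888), and it turned to 0.12 without WT replicate 2.

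Plvap encodes the protein of fenestral and caveolar diaphragms (chromosome 8, 71497753 to 71511806, GRCm38). It stood at 9.91, 8.76, 7.71 and 8.998 CPM in cKO replicates 1 to 4, against 8.44, 13.4, 8.84 and 8.96 CPM in WT replicates 1 to 4. Over the 7 libraries without WT replicate 2 it varied least of the 10, with 8.84 ± 0.903 CPM in libraries labelled cKO (SD, n = 4) and 8.75 ± 0.275 CPM in the other 3 WT libraries (SD, n = 3). The log2 fold change was −0.17 ± 0.17 with all libraries (SE; edgeR adjusted p = 0.887) and 0.02 without WT replicate 2.

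Slco1a4, or Oatp1a4, carries organic anions across the endothelium of the mouse brain (chromosome 6, 141805438 to 141856284, GRCm38). It stood at 58.4, 60.8, 45.1 and 87.6 CPM in cKO replicates 1 to 4, against 92.3, 57.7, 63.8 and 80.6 CPM in WT replicates 1 to 4. Both groups held libraries near 60 CPM and above 80 CPM. The difference was −0.22 ± 0.22 in log2 (SE; edgeR adjusted p = 0.887), −0.42 with cKO replicate 4 left out, −0.09 with cKO replicate 3 left out and −0.10 with WT replicate 1 left out. It rests on 720 to 1402 estimated counts per library, the most of the 10 genes, so counting error was small beside the spread between libraries. Slco1a4 belongs to a cluster of closely related genes, among which the estimate may divide shared reads.

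The 10 genes did not vary as a block. The spread among libraries labelled cKO, as the SD in percent of the mean, was 48.8% for Cldn5, 37.7% for Kdr, 28.2% for Slco1a4 and 24.8% for Flt1, but 10.2% for Plvap and 7.52% for Cdh5. Counting error alone gives 8.33% for Cldn5, 8.44% for Plvap and 7.87% for Cdh5 in that group, so Cldn5 varied far beyond it while Cdh5 and Plvap did so little or not at all. Among WT libraries the order was different, with 39.7% for Cdh5, 37.3% for Emcn and 23.7% for Plvap, against 9.42% for Kdr. Without WT replicate 2 those of Cdh5, Emcn and Plvap were 12.5%, 7.10% and 3.14%.

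The ends of the spread among libraries labelled cKO were mostly replicates 3 and 4, a pair chosen after their values were seen. Replicate 3 was the lowest of the 4 for 9 of the 10 genes, and replicate 4 the highest for 9. Replicate 4 held 2.75 times the CPM of replicate 3 for Cldn5, 2.30 times for Kdr, 1.94 times for Slco1a4 and 1.78 times for Flt1, but 1.17 times for Plvap and 1.04 times for Cdh5. Markers of other cells differed between these libraries as well. The sum of 10 satellite and Schwann cell markers was 7149 CPM in replicate 4 and 4005 CPM in replicate 3, and that of 16 mural cell markers was 454.3 CPM in replicate 4 and 320.3 CPM in replicate 3. The 15 sensory neuron markers summed to 684.0 CPM in replicate 4 and 268.6 CPM in replicate 3. Other sums went the other way. The 8 red cell genes summed to 802.2 CPM in replicate 4 and 1240 CPM in replicate 3, and the 12 platelet and leukocyte markers to 293.3 and 431.3 CPM. Their part in the endothelial differences was not tested.

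**Figure D3:**
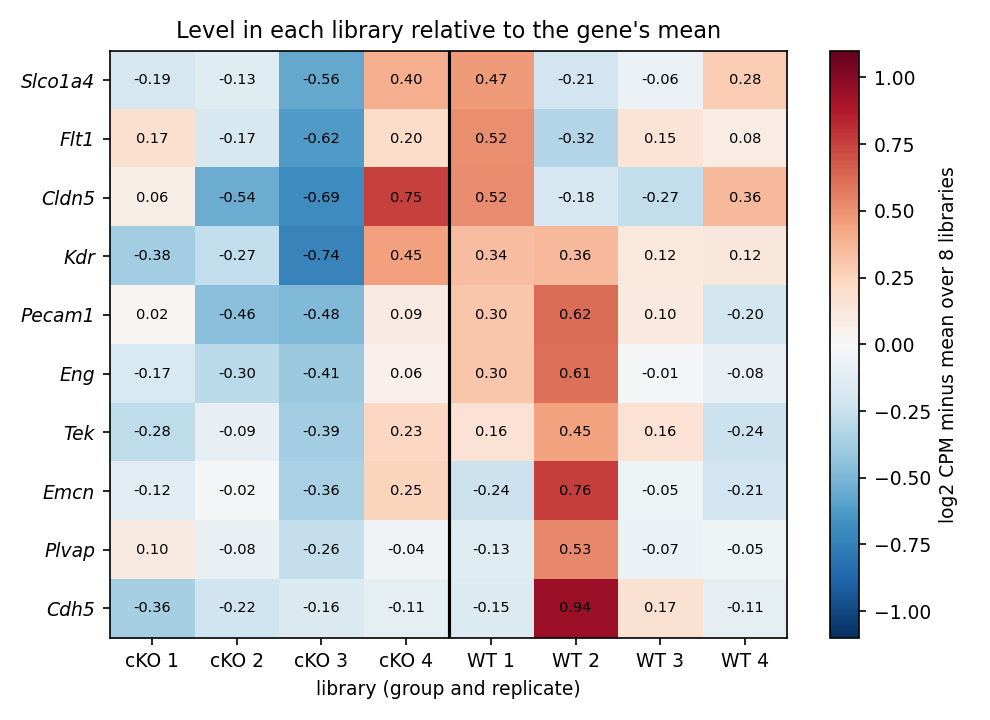
Log2 CPM of each gene in each library minus that gene's mean over the 8 libraries (columns, libraries labelled cKO then WT by replicate; red, above the mean; blue, below it). Slco1a4, Flt1 and Cldn5 are below their means in WT replicate 2, where Cdh5 is 0.94, Emcn 0.76 and Plvap 0.53 above theirs.

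Profiles over the libraries were compared by the root mean square (RMS) difference between log2 CPM values centred on each gene's mean, a description with no test. Pecam1 and Eng were each other's nearest gene among all 15097 others, at an RMS difference of 0.11 log2 units. Without WT replicate 2 Pecam1 ranked 27th nearest to Eng and Eng ranked 7th nearest to Pecam1. Slco1a4 was the 5th nearest gene to Cldn5, at 0.23, the 8th nearest to Flt1, at 0.18, and the 32nd nearest to Kdr, at 0.25. Without WT replicate 2 it was the 13th nearest to Cldn5, the 30th nearest to Flt1 and the nearest of all genes to Kdr, at 0.13.

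Nearest to Cldn5 over all 8 libraries were Lrp2bp, the thiamine transporter gene Slc19a3, Prom1, the Notch ligand gene Dll4 and Slco1a4, at 0.19 to 0.23. Nearest to Cdh5 were Rhbdf2, Myt1, Lcp1, Cfap46 and Itpripl2, at 0.06 to 0.08, where Cdh5's own RMS deviation from its mean was 0.38. Nearest to Plvap were Selenoh, Acyp1, Eef1e1, Tm2d1 and Ssr4, at 0.04 to 0.06. The nearest endothelial gene among the 10 ranked 901st for Cdh5 (Emcn) and 2164th for Plvap (Emcn), so neither gene had another of the 10 near the top of its list. All these profiles share the same 8 libraries and the step at WT replicate 2.

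WT replicate 2 stood on both sides of the other libraries, depending on the gene. Compared with the median of the other 7 libraries, it held 2.15 times the CPM for Cdh5, 1.85 times for Emcn, 1.62 times for Eng, 1.52 times for Plvap, 1.51 times for Pecam1 and 1.46 times for Tek. For Flt1 it held 0.721 times, for Cldn5 0.840 times and for Slco1a4 0.904 times. It was the highest library for 6 of the 10 genes and the lowest for 0, whereas over all tested genes it was the highest for 37.5% and the lowest for 36.7%. This is 1 library, chosen because it stands apart, so its values are given without a test.

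**Figure D4:**
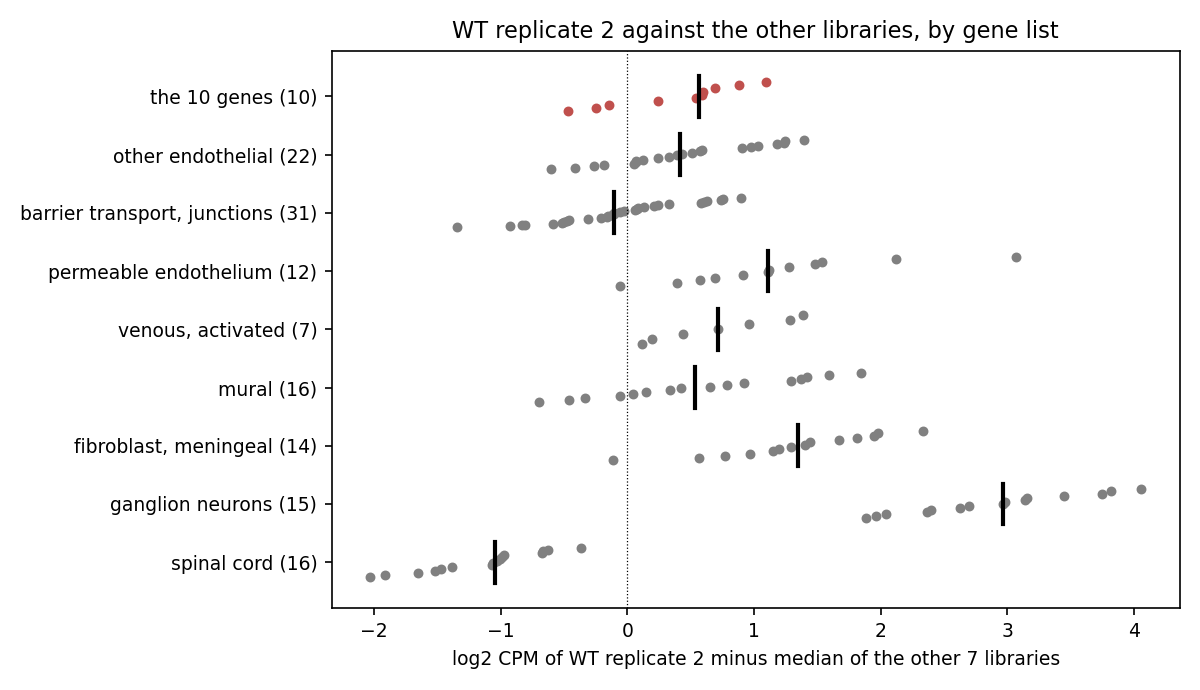
Log2 CPM of WT replicate 2 minus the median of the other 7 libraries for each tested gene of 9 lists (points; number of genes in brackets; black bar, list median). The 10 endothelial genes spread from −0.47 to 1.096 on both sides of 0, barrier genes centre on −0.10, genes of permeable endothelium on 1.11, ganglion neuron markers on 2.97 and spinal cord markers on −1.04.

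Other genes used by barrier vessels and by permeable vessels were read from lists, and other cells may also make them. The 31 genes of barrier transport and junctions summed to 2695 to 3043 CPM in libraries labelled cKO and 2725 to 3058 CPM in WT. The part of endothelial cells in these sums was not tested. In WT replicate 2 the 31 had a median log2 difference of −0.10 from the other 7 libraries. There 9 were at their highest and 12 at their lowest, against 37.5% and 36.7% of all tested genes. The 12 tested genes of permeable endothelium had a median of 1.11, with 10 at their highest and 0 at their lowest. The 3 lowest of the 31 barrier genes in WT replicate 2, chosen after their values were seen, were Mfsd2a, Slc2a1 and Slco1c1. Mfsd2a, the lipid transporter that keeps barrier endothelium tight, stood at 23.6 CPM in WT replicate 2 and at 46.7 to 81.3 CPM in the other 7 libraries. Slco1c1, a thyroid hormone transporter of the barrier, stood at 23.7 CPM there and at 33.5 to 50.05 CPM elsewhere. Slc2a1, the glucose transporter of barrier endothelium and perineurium, stood at 78.3 CPM in WT replicate 2 and at 117.9 to 179.6 CPM elsewhere. The 3 highest of the 31 there, Ly6a, Slc40a1 and Abcg2, went the other way, with log2 differences of 0.89, 0.76 and 0.74, so the barrier genes did not move together. Of the permeable list Aqp1, a water channel that small sensory neurons of rodents also make, stood at 174.7 CPM against 11.5 to 43.5 CPM, and Cavin1, a coat protein of caveolae, at 97.7 CPM against 31.04 to 45.8 CPM. Markers of several other cells in that library moved about as far as those of permeable endothelium. Median log2 differences were 1.35 for fibroblast and meningeal genes (13 of 14 highest there), 1.14 for perineurial, 1.23 for satellite and Schwann cell and 1.03 for red cell genes. Of the 10 satellite and Schwann cell genes 7 were highest and 2 lowest there. The median was 0.54 for mural genes, 0.46 for choroid plexus genes and −1.04 for spinal cord markers. The part of these other cells was not tested.

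**Figure D5:**
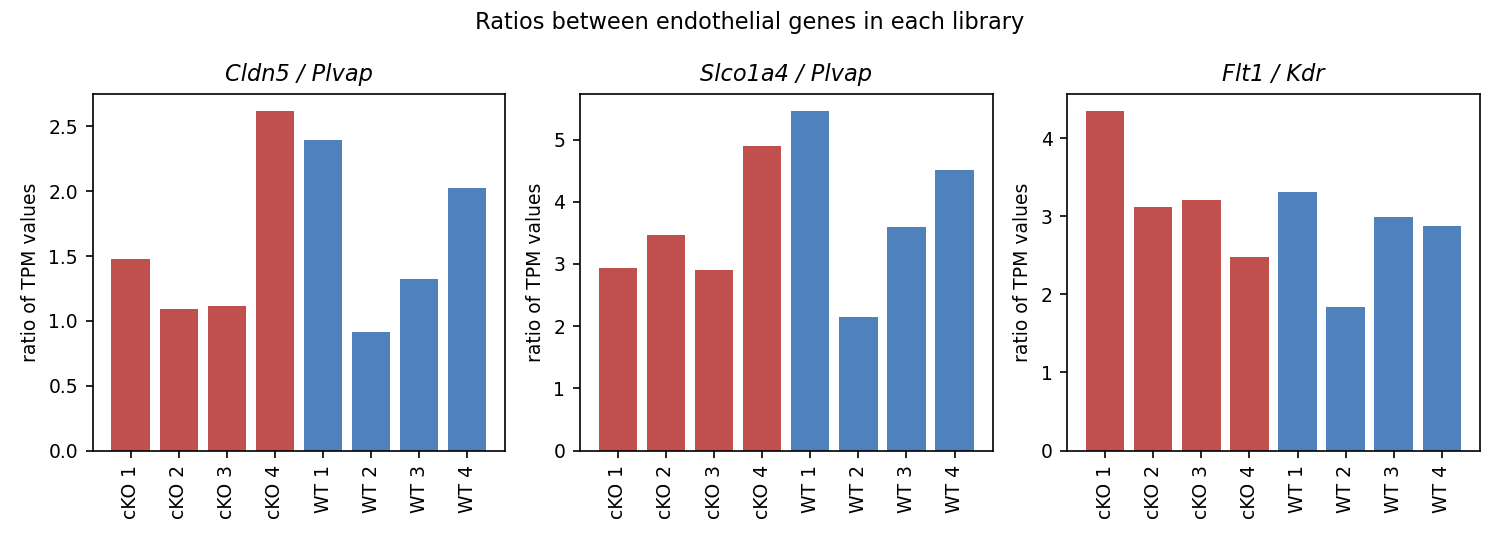
Ratio of TPM values in each library for Cldn5 over Plvap, Slco1a4 over Plvap and Flt1 over Kdr (bars from 0; red, libraries labelled cKO; blue, WT). WT replicate 2 has the lowest bar in all 3 panels, at 0.915, 2.14 and 1.83.

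Ratios between genes of 1 library do not depend on its depth. The TPM of Cldn5 was 1.48, 1.09, 1.11 and 2.62 times that of Plvap in cKO replicates 1 to 4, against 2.39, 0.915, 1.32 and 2.03 times in WT replicates 1 to 4. The groups overlapped widely, at 1.58 ± 0.719 in libraries labelled cKO and 1.66 ± 0.669 in WT (SD, n = 4 each). Slco1a4 stood at 2.93, 3.47, 2.90 and 4.89 times Plvap in cKO replicates 1 to 4, against 5.47, 2.14, 3.59 and 4.51 times in WT replicates 1 to 4. Both barrier ratios were highest in cKO replicate 4 and WT replicate 1 and lowest in WT replicate 2, and the group means of each ratio differed by less than the SD within either group. Flt1 over Kdr was 3.29 ± 0.779 in libraries labelled cKO and 2.75 ± 0.641 in WT (SD, n = 4 each).

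Between the groups, no gene of the barrier list passed the test (edgeR). An unadjusted p below 0.05 was held by 1 of 31, against 1.65% of all tested genes. Lower in libraries labelled cKO were 21 of 31 (median log2 fold change −0.05), against 51.5% of all. Without WT replicate 2 there were 24 of 31 lower (median −0.09), against 49.9% of all. The members of lowest p were Abcb1a, Slc40a1, Abcg2 and Slc38a5, and none passed. Abcb1a encodes P-glycoprotein, the efflux pump of barrier endothelium, and shares much sequence with its paralog Abcb1b, so the division of reads between them is uncertain. It stood at 37.5, 35.3, 38.1 and 39.3 CPM in cKO replicates 1 to 4, against 52.3, 43.0, 46.4 and 41.9 CPM in WT replicates 1 to 4. The groups did not overlap, where 0.914% of all tested genes lay lower in libraries labelled cKO without overlap. The difference was −0.29 ± 0.082 in log2 (SE; edgeR adjusted p = 0.887), and without WT replicate 2 it was −0.32. Abcg2, another efflux pump, averaged 33.6 ± 2.92 CPM in libraries labelled cKO and 42.0 ± 10.2 CPM in WT (SD, n = 4 each), and the iron exporter Slc40a1 averaged 12.6 ± 2.37 CPM in libraries labelled cKO and 16.8 ± 3.95 CPM in WT. The log2 fold changes of Abcg2 and Slc40a1 were −0.32 and −0.42, and −0.14 and −0.26 without WT replicate 2. The amino acid transporter Slc38a5 averaged 3.98 CPM in libraries labelled cKO and 5.02 CPM in WT.

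Of 22 other general endothelial genes, 20 had lower means in libraries labelled cKO and 0 passed (edgeR; 1 had an unadjusted p below 0.05), and the median of their log2 fold changes was −0.22. The count was 19 of 22 and the median −0.09 without WT replicate 2. Over all tested genes 51.5% were lower and 1.65% had an unadjusted p below 0.05 (edgeR). Without WT replicate 2 these shares were 49.9% and 1.94%. Tal1, a transcription factor of blood and endothelium, averaged 5.04 ± 0.588 CPM in libraries labelled cKO and 7.62 ± 2.82 CPM in WT, and Clec14a, a vessel surface lectin, 4.25 ± 0.939 CPM in libraries labelled cKO and 6.94 ± 3.26 CPM in WT (SD, n = 4 each). Vwf, the clotting factor stored in endothelium, averaged 23.2 ± 6.33 CPM in libraries labelled cKO and 34.8 ± 14.4 CPM in WT, and Robo4, a guidance receptor of vessels, 4.91 ± 0.713 CPM in libraries labelled cKO and 6.20 ± 1.01 CPM in WT. Each of these 4 peaked in WT replicate 2, at 11.6 CPM for Tal1, 11.8 CPM for Clec14a, 55.0 CPM for Vwf and 6.85 CPM for Robo4. Without that library their log2 fold changes were −0.32, −0.32, −0.27 and −0.28, against −0.60, −0.71, −0.59 and −0.33 with it. The 12 tested genes of permeable endothelium had 11 lower and 0 passing, also at an unadjusted p below 0.05 (edgeR; median −0.57), and 8 of 12 lower without WT replicate 2 (median −0.14). Those of lowest p were Esm1, Aqp1, Cavin1 and Cd36, with log2 fold changes of −0.73, −1.49, −0.62 and −0.66, which were −0.48, −0.14, −0.14 and −0.16 without WT replicate 2.

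The ligands and partners of Kdr, Flt1, Tek and Eng divided into 16 lower and 11 higher of 27, against 51.5% of all tested genes lower. Of the 27, 0 passed, also at an unadjusted p below 0.05 (edgeR), against 1.65% of all at that p. Their median was −0.15, and −0.005 without WT replicate 2. The members of lowest p were Smad6, Bmp4, Id3 and Smad9. Smad6, an inhibitor of BMP signalling, averaged 1.37 ± 0.396 CPM in libraries labelled cKO and 1.98 ± 0.288 CPM in WT, and Id3, a BMP target, 20.7 ± 3.62 CPM in libraries labelled cKO and 29.2 ± 12.5 CPM in WT (SD, n = 4 each). The log2 fold change of Id3 was −0.50, and −0.17 without WT replicate 2, and that of Smad9 was 0.15, and 0.08 without it. The ligand gene Bmp4 averaged 4.24 CPM in libraries labelled cKO and 5.61 CPM in WT, and the signal transducer Smad9 46.05 CPM in libraries labelled cKO and 41.5 CPM in WT. Vegfa, the ligand of both VEGF receptors, named after its values were seen, lay at 81.2 to 97.97 CPM in libraries labelled cKO and 69.1 to 86.2 CPM in WT, with its lowest value in WT replicate 2.

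The Wnt pathway that induces the barrier had 8 of 15 members lower (median −0.003), against 51.5% of all tested genes. Of the 15, 0 passed, also at an unadjusted p below 0.05 (edgeR), against 1.65% of all at that p. Without WT replicate 2 there were 9 of 15 lower (median −0.05), against 49.9% of all. In that fit 1 of 15 had an unadjusted p below 0.05 (edgeR), against 1.94% of all. Tspan12, a co-receptor protein of the norrin branch, stood at 65.8, 63.1, 68.8 and 62.0 CPM in cKO replicates 1 to 4, against 60.6, 40.5, 57.7 and 61.1 CPM in WT replicates 1 to 4. Each cKO library lay above each WT library, though narrowly (62.0 against 61.1 CPM), and the share of all genes placed so was not counted. The difference was 0.24 ± 0.13 in log2 (SE; edgeR adjusted p = 0.887) and 0.12 without WT replicate 2. Reck, Lrp6 and Wnt7b came next in p, with log2 fold changes of −0.25, −0.13 and 0.35, which were −0.14, −0.07 and 0.13 without WT replicate 2.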

How the data were processed

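Total RNA was extracted with Trizol and made into mRNA libraries, per the labels' protocols; the strand setting, read type and annotation were not given in the sources used here. Per the submitters' processing notes the tools included RSEM 1.3.1, HISAT2 2.2.1 and Bowtie2 2.4.5, and mm10 and GRCm38 appear as builds, all without roles. The authors deposited estimated counts per gene, not scaled for depth and not whole for 10.3% to 11.0% of values, and TPM and FPKM values, named in the file headers. The deposited FPKM and a deposited normalized count signal were not used. Columns named Ctrl were taken as WT by number, since the others are named cKO.

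The edgeR quasi-likelihood test (version 4.0.16, R 4.3.3) ran on estimated counts rounded to whole numbers (filterByExpr, TMM, group as the only term, Benjamini-Hochberg over 15098 genes, threshold 0.05), on code tested on simulated data. CPM used TMM-scaled totals. Standard errors came from the fold change and its F statistic. Log2 CPM had a prior count of 2. Alternatives were RLE size factors, DESeq2 1.42.0, limma 3.58.1 on log2(TPM + 1) and log2(TPM + 0.1), no filter, each library left out, a replicate block and a spinal cord covariate. The members and lists were chosen with earlier results of these data known. The 10 genes are all named. Of other lists up to 4 genes of lowest p are named, since none passed. The 5 most similar genes were named for Cdh5, Cldn5 and Plvap, predicted genes left out. Positions came from RefSeq GRCm38.p6 by Entrez identifier, matched for 18507 of 18560 genes.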

Additional observations from a re-analysis of the deposited data

Results flagged for a closer look

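Each of the 10 genes was checked in each group for a library far from its other 3, which chance marks in about 1 group of 20, and 2 of 20 groups were marked. Emcn was marked in WT, where replicate 2 at 19.05 CPM lay apart from the other 3 libraries at 9.49 to 10.8 CPM, a gap of 0.864 of the group's range. Plvap was marked in WT, where replicate 2 at 13.4 CPM lay apart from the others at 8.44 to 8.96 CPM, a gap of 0.894 of the range. Both marks fall on the library that held the most sensory neuron RNA, and the part of its tissue makeup in them was not tested.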

How the results depend on the processing

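With all 15 alternatives 0 of the 10 genes had an adjusted p below 0.05, 8 to 10 of them were lower in libraries labelled cKO, and their median log2 fold change lay between −0.46 and −0.14, both ends from leaving out a cKO library (replicate 4 and replicate 3). Over the whole table the count of genes past the threshold was 1 with DESeq2 (Lztfl1; adjusted p undefined for 5 genes), 1 with the spinal cord covariate (Capn11) and 0 to 1 with each library left out (Capn11 without WT replicate 2), named after their values were seen. Of 150 refits of single genes 143 kept the direction and none passed. Emcn turned to 0.13 and Plvap to 0.017 with the covariate, and to 0.12 and 0.017 without WT replicate 2, where Emcn lay between −0.29 and 0.12 and Plvap between −0.23 and 0.017 over the libraries left out. With single libraries left out Cldn5 lay between −0.50 and 0.043. The causes were not tested. Whether replicate numbers pair the samples was not settled. Deviations of same-numbered libraries correlated at −0.04 to 0.25 across genes and those of differently numbered ones at −0.22 to 0.27, too few pairs to decide. With a replicate block 0 genes passed, 10 of 10 were lower and the median was −0.25. Among the 10 genes the lowest estimated count behind a value was 88, for Cldn5, and intervals of single genes allow changes in either direction for 9 of 10. Some genes of the other lists rest on fewer, such as Mmrn1 at 0.375 CPM in cKO replicate 4.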

Other observations

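Vessel subtypes outside the barrier question were uneven in WT replicate 2, where over all tested genes 37.5% were at their highest and 36.7% at their lowest. Of 13 arterial and Notch genes 7 were highest and 3 lowest there, of 7 venous genes 5 and 0, of 6 lymphatic genes 3 and 2, and of 16 mural genes 9 and 2. Arterial and Notch genes had 9 of 13 members lower in libraries labelled cKO, 0 passing (edgeR; 1 at an unadjusted p below 0.05), with Notch1, a receptor of arterial fate, at 22.1 ± 1.19 CPM in libraries labelled cKO and 27.3 ± 3.08 CPM in WT (SD, n = 4 each). The count was 8 of 13 without WT replicate 2, with a median log2 fold change of −0.06, against −0.25 with it. Beside these and the counts below, 51.5% of all tested genes were lower, and 49.9% without WT replicate 2. An unadjusted p below 0.05 (edgeR, all libraries) was held by 1.65% of all. Venous and activated genes had 5 of 7 lower and lymphatic genes 5 of 6, 0 passing in either (0 and 1 at an unadjusted p below 0.05). Leaving out WT replicate 2 gave 4 of 7 venous and 3 of 6 lymphatic genes lower. Mmrn1, a gene of lymphatic vessels and platelets, stood at 1.20, 0.959, 0.878 and 0.375 CPM in cKO replicates 1 to 4, against 0.396, 6.21, 2.74 and 1.74 CPM in WT replicates 1 to 4. Its log2 fold change of −1.70 was −0.94 without WT replicate 2. It rests on few reads, with levels below 1 CPM in cKO replicates 2 to 4 and in WT replicate 1. Mural genes had 11 of 16 lower with 0 passing (1 at an unadjusted p below 0.05), and 11 of 16 lower also without WT replicate 2, where the median was −0.11, against −0.27 with it. Of 6 choroid plexus markers measured here, 3 passed the filter on low counts, among them Kl at 4.75 to 6.52 CPM in libraries labelled cKO and 4.53 to 6.29 CPM in WT, and the defining marker Ttr did not, at 0.0629 to 0.314 CPM in libraries labelled cKO and 0.193 to 0.613 CPM in WT.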
